A study of Mus musculus with 6 samples.

Results

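Of the genes of the distal nephron, 8 that encode channels, secreted products and their regulators were followed in the obstructed mouse kidney: Umod, Klk1, Pvalb, Kcnj1, Kcnj10, Trpm6, Bsnd and Wnk4. They were chosen by symbol, and all 8 were found among the 18849 genes of the deposited expression table. Whole kidneys of male C57BL/6 mice, 8 weeks old, were sequenced after 14 days of unilateral ureteral obstruction (UUO), in which 1 ureter is tied off so that the kidney above it dilates and scars. There were 3 libraries from c-AblEpi-cKO mice, called Epi-cKO here, which carry floxed c-Abl (the tyrosine kinase gene Abl1) together with the Ksp-Cre transgene. The other 3 libraries came from c-Ablflox/flox mice, called flox/flox here, which carry the floxed gene without an account of Cre in the design text and whose genotype label reads WT. All 6 kidneys were obstructed and both groups are described as floxed, so each value sets 1 obstructed genotype against the other, and unobstructed kidneys were not analysed here. The labels give the genotype of the Epi-cKO libraries as a knockdown of c-Abl. Ksp-Cre is driven by the promoter of Cdh16 (kidney-specific cadherin), which is active in tubule epithelium, so kidney cells outside the tubules should keep Abl1. The labels do not say that each library is a separate animal, so the p-values reflect library-to-library spread, which may be technical.

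The distal nephron runs from the thick ascending limb of the loop of Henle through the distal convoluted tubule and connecting tubule to the collecting duct, and it sets the final sodium, potassium, calcium and magnesium content of urine. Salt uptake in the thick ascending limb needs an apical potassium channel that returns potassium to the lumen and basolateral chloride channels that let chloride leave the cell. In the distal convoluted tubule, WNK kinases act through the kinases SPAK and OSR1 on the sodium chloride cotransporter Slc12a3, and a basolateral potassium channel sets the membrane potential. These segments also secrete proteins into urine, above all uromodulin and tissue kallikrein.

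Expression was measured as FPKM (fragments scaled to gene length and to the library's mapped fragments), a unit that allows levels to be compared between genes. Differences between genotypes are Epi-cKO minus flox/flox in log2(FPKM + 1), where the added 1 shrinks the differences of weakly expressed genes, and "passed" means an adjusted p under 0.05 by limma over all 13390 genes tested. The tested genes had at least 1 FPKM in at least 3 of the 6 libraries. A weakly expressed gene could meet this through 1 group alone, which favours genes that are higher in that group. The spacing of low values implied about 15900000 to 16550000 fragments in each Epi-cKO library and 15900000 to 17750000 in each flox/flox library. The targeted gene Abl1 read 10.46, 14.45 and 12.91 FPKM in Epi-cKO replicates 1, 2 and 3 and 18.16, 15.93 and 17.33 FPKM in flox/flox replicates 1, 2 and 3, without overlap, and did not pass (limma adjusted p = 0.144). Epi-cKO replicate 3 stood apart from the other Epi-cKO libraries. The leading principal component carried 61.8% of the variance and placed it at -7.48, against 54.07 and 37.44 for Epi-cKO replicates 1 and 2, and the flox/flox libraries lay between -29.0 and -26.25. Results are therefore given with and without it. Since it was picked for its likeness to flox/flox, counts made without it are larger by construction.

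The regulatory sequence at the start of 4 of these genes is shown for orientation, from 250 bases before to 50 bases after the RefSeq start, 5′ to 3′ on the gene's strand, in build GRCm38.p6. The 4 are the gene with the highest flox/flox level (Umod, chr7:119479213-119479512, minus strand), the gene with the largest difference between genotypes (Klk1, chr7:44225110-44225409, plus strand), the potassium channel with the smaller p (Kcnj1, chr9:32393735-32394034, plus strand) and the gene with nearly equal group means (Trpm6, chr19:18749480-18749779, plus strand). Capitals mark matches to the motifs searched.
Umod: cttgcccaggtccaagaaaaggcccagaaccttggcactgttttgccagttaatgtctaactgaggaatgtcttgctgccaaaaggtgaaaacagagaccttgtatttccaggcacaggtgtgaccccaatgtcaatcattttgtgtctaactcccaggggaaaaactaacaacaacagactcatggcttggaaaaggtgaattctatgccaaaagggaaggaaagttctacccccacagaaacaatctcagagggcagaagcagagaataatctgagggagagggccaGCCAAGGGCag
Klk1: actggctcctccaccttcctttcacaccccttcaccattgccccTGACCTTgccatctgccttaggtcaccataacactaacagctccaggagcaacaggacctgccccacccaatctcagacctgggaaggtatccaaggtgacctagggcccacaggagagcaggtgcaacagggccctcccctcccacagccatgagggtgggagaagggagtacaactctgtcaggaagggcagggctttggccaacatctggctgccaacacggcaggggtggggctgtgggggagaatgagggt
Kcnj1: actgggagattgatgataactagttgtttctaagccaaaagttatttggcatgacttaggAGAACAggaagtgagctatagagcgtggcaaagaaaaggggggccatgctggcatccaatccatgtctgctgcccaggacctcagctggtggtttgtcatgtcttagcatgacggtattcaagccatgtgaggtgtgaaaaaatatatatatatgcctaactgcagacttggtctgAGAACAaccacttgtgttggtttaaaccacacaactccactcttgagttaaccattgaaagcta
Trpm6: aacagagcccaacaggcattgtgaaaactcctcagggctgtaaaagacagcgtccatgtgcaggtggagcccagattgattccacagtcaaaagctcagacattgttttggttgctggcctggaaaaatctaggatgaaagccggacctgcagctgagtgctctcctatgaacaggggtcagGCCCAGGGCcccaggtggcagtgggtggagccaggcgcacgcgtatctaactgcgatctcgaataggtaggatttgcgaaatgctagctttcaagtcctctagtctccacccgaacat
Both strands were searched. Estrogen-related receptors were represented by AAGGTCA, present in 4.72% of 32851 RefSeq promoters of this length. Factors of the AP-2 family were represented by GCCNNNGGC, present in 16.6%, and steroid hormone receptors by the half-site TGTTCT, present in 19.0%. The TATA box (TATAAA) is present in 13.6% of promoters. TCF and LEF factors were represented by CTTTGAT, present in 3.73%, and forkhead factors by TGTTTAC, present in 3.65%. The Umod window held an AP-2 match from base 39 to 47, counted from the first transcribed base as 0. The Klk1 window held the estrogen-related receptor letters on the other strand from -206 to -200. The Kcnj1 window held the steroid receptor half-site on the other strand at -190 to -185 and at -14 to -9, and the Trpm6 window held an AP-2 match at -68 to -60. The bases after the Trpm6 start were not found near the start of an annotated coding Trpm6 transcript, unlike those of Umod, Klk1 and Kcnj1. Positions in the Trpm6 window are therefore less certain. A match is a description of the letters and not a binding site. None of the motifs was found in all 4 windows. Of the 8 genes, 7 were present in the RefSeq promoter table.

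No distal nephron gene passed the limma test over all genes with the 6 libraries, yet 6 of the 7 tested read higher in every Epi-cKO library than in any flox/flox library. The 6 were Umod, Klk1, Kcnj1, Kcnj10, Bsnd and Wnk4, with folds of 1.53 to 4.84 in mean FPKM, and Trpm6 had nearly equal means. Across all genes 0.0672% passed (9 genes), 8.38% were higher and 16.3% lower at an unadjusted limma p under 0.05, and in 10.0% every Epi-cKO library lay above every flox/flox library. At the unadjusted threshold 6 of the 7 were higher and 0 lower. An exact two-sided permutation test gave each of the 6 a p of 0.1, the smallest that 3 against 3 libraries allow. The median log2 difference was 1.10 for the 7 genes and -0.12 for all genes tested. In whole kidney, fewer cells of a type and less RNA per cell cannot be told apart. The parvalbumin gene Pvalb was near 0 and did not enter the test. Without Epi-cKO replicate 3 the same 6 genes passed, where 9.02% of all genes passed as higher.

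**Figure D1:**
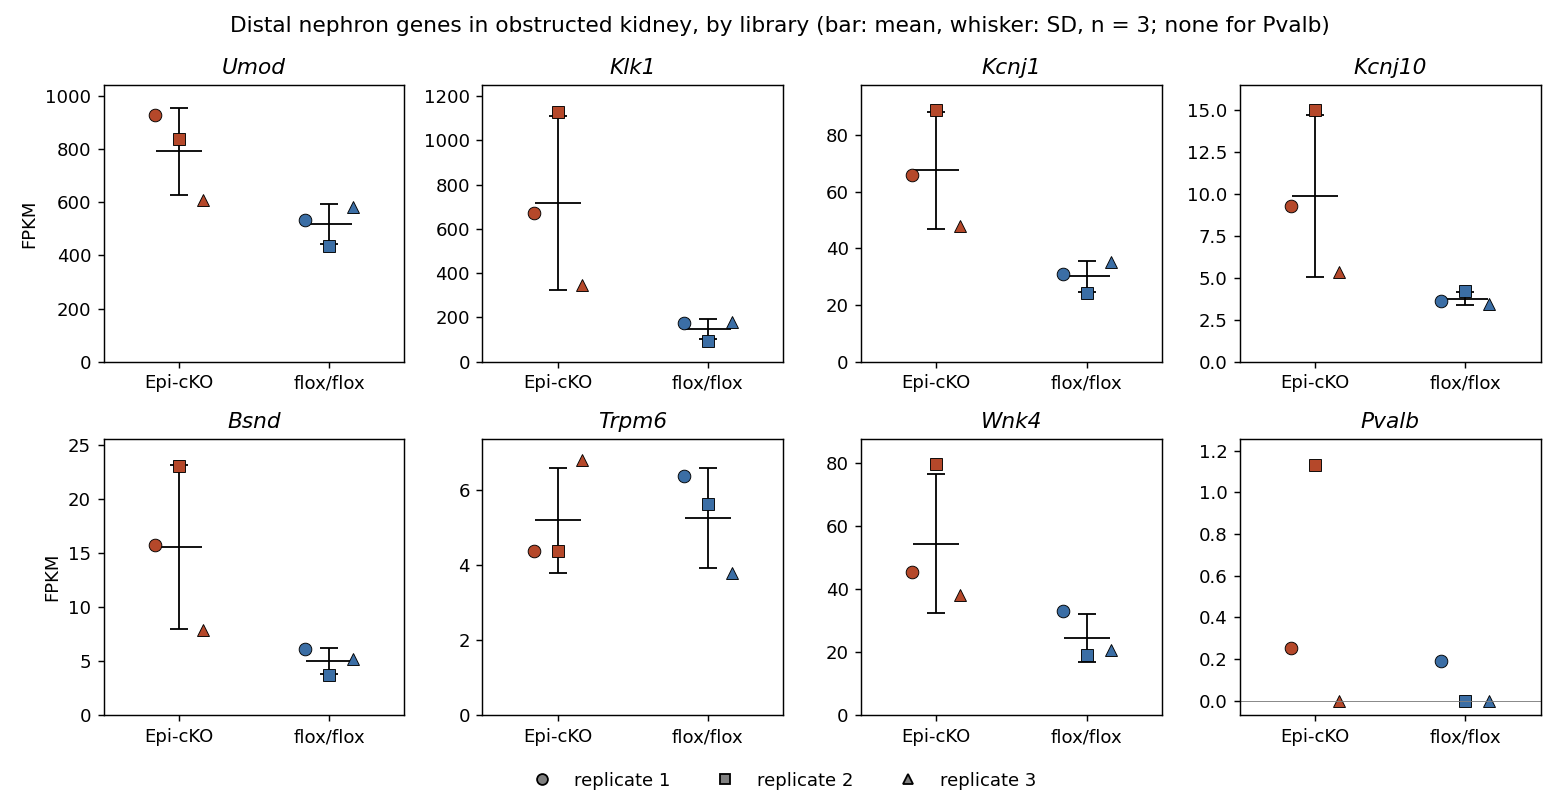
FPKM of each of the 8 genes in each library, with the 3 Epi-cKO libraries left of the 3 flox/flox libraries. Bars are means and whiskers are SD (n = 3), except for Pvalb, where points alone are shown. All 3 Epi-cKO points lie above all 3 flox/flox points for Umod, Klk1, Kcnj1, Kcnj10, Bsnd and Wnk4, and the groups overlap for Trpm6 and Pvalb.

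Umod (Entrez 22242) encodes uromodulin, a protein made by the thick ascending limb and the most abundant protein of normal urine. It read 929.21, 836.42 and 608.05 FPKM in Epi-cKO replicates 1, 2 and 3 and 535.02, 433.88 and 580.83 FPKM in flox/flox replicates 1, 2 and 3. The groups did not overlap, but Epi-cKO replicate 3 lay close to the highest flox/flox library. Ranked by FPKM among all genes of its library, Umod stood between place 52 and place 156, the highest level of the 8 genes in every library except Epi-cKO replicate 2. The mean was 791 ± 165 FPKM in Epi-cKO and 517 ± 75.2 FPKM in flox/flox kidneys (SD, n = 3 each). The log2 difference was 0.60 (SE 0.215, 95% interval 0.09 to 1.11, limma adjusted p = 0.155), the smallest of the 6. Without Epi-cKO replicate 3 it was 0.78 (limma adjusted p = 0.0206).

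Klk1 (Entrez 16612) encodes tissue kallikrein, a serine protease of connecting tubule cells that releases kinins from kininogen. It read 672.96, 1127.39 and 348.71 FPKM in Epi-cKO replicates 1, 2 and 3, against 173.01, 93.86 and 177.6 FPKM in flox/flox replicates 1, 2 and 3. Even the lowest Epi-cKO library was about 2.35 times the flox/flox mean. The mean was 716 ± 391 FPKM in Epi-cKO and 148 ± 47.1 FPKM in flox/flox kidneys (SD, n = 3 each), a fold of 4.84. The log2 difference of 2.17 (SE 0.449, 95% interval 1.10 to 3.23) was the largest of the 7 tested, and its limma adjusted p was 0.0686. Without Epi-cKO replicate 3 it was 2.60 (limma adjusted p = 0.00639). In Epi-cKO replicate 2 Klk1 stood at place 29 among all genes, and in flox/flox replicate 2 at place 834.

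Mouse Klk1 has close relatives, the Klk1b genes, whose transcripts could share reads with it. In the annotated transcripts (GENCODE M21, GRCm38), 257 of the 905 windows of 50 bases in Klk1, or 28.4%, occurred without change in at least 1 of 13 Klk1b genes. Klk1b5 was closest, at 95.2% identity over 953 aligned bases. The longest run that the coding sequences of Klk1 and Klk1b5, both on chromosome 7, have in common is 145 bases, coding bases 346 to 490 of each, and it is shown because a read inside it cannot be assigned to either gene.
Klk1 and Klk1b5: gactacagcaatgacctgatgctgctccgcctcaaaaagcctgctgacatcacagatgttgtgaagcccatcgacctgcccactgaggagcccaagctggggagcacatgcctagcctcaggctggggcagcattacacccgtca
The 13 Klk1b genes summed to 6.72, 14.4 and 10.8 FPKM in Epi-cKO replicates 1, 2 and 3 and to 4.05, 2.07 and 3.06 FPKM in flox/flox replicates 1, 2 and 3. That was between 0.999% and 3.09% of Klk1 in the same library. Klk1b5 itself read 2.41, 2.88 and 2.48 FPKM in Epi-cKO and 0.54, 0.96 and 0.76 FPKM in flox/flox replicates 1, 2 and 3 (limma adjusted p = 0.0547). At these levels the Klk1b values are uncertain, since a small share of misassigned Klk1 reads would equal them, while Klk1 itself exceeds their sum in every library.

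The potassium channel gene Kcnj1 (Entrez 56379) encodes ROMK, which recycles potassium into the lumen of the thick ascending limb and secretes it in the collecting duct. It read 66.05, 88.96 and 47.81 FPKM in Epi-cKO replicates 1, 2 and 3 and 31.04, 24.26 and 35.09 FPKM in flox/flox replicates 1, 2 and 3. All Epi-cKO libraries were above all flox/flox libraries. The log2 difference was 1.11 (SE 0.244, 95% interval 0.53 to 1.69, limma adjusted p = 0.0740), and without Epi-cKO replicate 3 it was 1.33 (limma adjusted p = 0.00828). Kcnj10 (Entrez 16513) encodes Kir4.1, the basolateral potassium channel of the distal convoluted tubule. It read 9.3, 14.97 and 5.37 FPKM in Epi-cKO and 3.61, 4.19 and 3.45 FPKM in flox/flox replicates 1, 2 and 3. The flox/flox libraries were close together, at 3.75 ± 0.389 FPKM, while the Epi-cKO libraries spread over 9.88 ± 4.83 FPKM (SD, n = 3 each). The log2 difference was 1.10 (SE 0.315, limma adjusted p = 0.110), and 1.44 without Epi-cKO replicate 3 (limma adjusted p = 0.00848).

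Kcnj16 encodes Kir5.1, the partner subunit of Kir4.1. It was the more abundant of the pair and had tighter groups, with 117.24, 102.99 and 102.24 FPKM in Epi-cKO replicates 1, 2 and 3 and 65.47, 69.09 and 70.41 FPKM in flox/flox replicates 1, 2 and 3. Its log2 difference was 0.64 (limma adjusted p = 0.0547). Kcnj10 amounted to 9.24 ± 4.78% of Kcnj16 in Epi-cKO and 5.49 ± 0.583% in flox/flox kidneys (SD, n = 3 each), with overlapping groups. Of the 13 genes in the list of inwardly rectifying potassium channels, 4 were tested, Kcnj16 among them. Kcnj15, another tubule channel subunit, read 116 ± 27.6 FPKM in Epi-cKO and 55.8 ± 8.78 FPKM in flox/flox kidneys (limma adjusted p = 0.0655). Kcnj2 and Kcnj8 stayed near 1 to 2 FPKM in both groups, with log2 differences of -0.19 and -0.18 (limma adjusted p = 0.500 and 0.581).

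Bsnd (Entrez 140475) encodes barttin, a subunit that chloride channels need to reach the basolateral membrane. It read 15.77, 23.08 and 7.85 FPKM in Epi-cKO replicates 1, 2 and 3 and 6.16, 3.72 and 5.24 FPKM in flox/flox replicates 1, 2 and 3. Every Epi-cKO library was higher than every flox/flox library. The log2 difference of 1.36 (SE 0.363, 95% interval 0.50 to 2.22) was second to that of Klk1 (limma adjusted p = 0.0990), and it was 1.76 without Epi-cKO replicate 3 (limma adjusted p = 0.00677).

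Trpm6 (Entrez 225997) encodes the apical magnesium channel of the distal convoluted tubule and was the exception among the tested genes. It read 4.38, 4.37 and 6.79 FPKM in Epi-cKO replicates 1, 2 and 3 and 6.37, 5.61 and 3.78 FPKM in flox/flox replicates 1, 2 and 3. The groups overlapped, and Epi-cKO replicate 3, the lowest Epi-cKO library for the other 6 genes, was here the highest. The log2 difference was -0.02 (SE 0.227, 95% interval -0.55 to 0.52, limma adjusted p = 0.970), and its sign turns with median-ratio or quantile scaling. The interval spans both directions, so equal levels are not shown. Set against the other genes in the same library, Trpm6 was 0.995 ± 0.835% of Klk1 in Epi-cKO and 3.93 ± 1.94% in flox/flox kidneys, and 11.0 ± 6.24% of Wnk4 in Epi-cKO and 22.2 ± 6.05% in flox/flox kidneys (SD, n = 3 each). Klk1 and Wnk4 had separated groups on their own, so these ratios largely restate the differences of Klk1 and Wnk4. Both ratios were without overlap between groups, with an exact two-sided permutation p of 0.1, the smallest that 3 against 3 libraries allow. The gap was narrow. In Epi-cKO and flox/flox replicate 3, Trpm6 was 1.95% and 2.13% of Klk1, and 17.8% and 18.1% of Wnk4. Against Umod, Kcnj1, Kcnj10 and Bsnd the ratio overlapped (exact permutation p = 0.2 each). Its homologue Trpm7 read 23.2 ± 4.90 FPKM in Epi-cKO and 19.4 ± 3.93 FPKM in flox/flox kidneys (limma adjusted p = 0.456), and Cnnm2, a basolateral protein of magnesium handling, 8.58 ± 1.96 and 8.39 ± 1.40 FPKM in Epi-cKO and flox/flox kidneys (limma adjusted p = 0.952).

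Wnk4 (Entrez 69847) encodes a kinase that regulates salt cotransport in the distal nephron. It read 45.42, 79.62 and 38.25 FPKM in Epi-cKO replicates 1, 2 and 3 and 33.14, 19.27 and 20.85 FPKM in flox/flox replicates 1, 2 and 3. The groups did not overlap, with Epi-cKO replicate 3 a little above flox/flox replicate 1. The log2 difference was 1.09 (SE 0.312, 95% interval 0.36 to 1.83, limma adjusted p = 0.110), and 1.31 without Epi-cKO replicate 3 (limma adjusted p = 0.0313). Its relative Wnk1 read 33.7 ± 7.11 FPKM in Epi-cKO and 29.1 ± 1.18 FPKM in flox/flox kidneys (limma adjusted p = 0.509). Wnk4 was 128%, 201% and 148% of Wnk1 in Epi-cKO replicates 1, 2 and 3 and 118%, 63.4% and 72.4% in flox/flox replicates 1, 2 and 3, without overlap (exact two-sided permutation p = 0.1). Set against the cotransporter Slc12a3, Wnk4 was 63.9 ± 48.9% in Epi-cKO and 54.3 ± 26.8% in flox/flox kidneys (SD, n = 3 each), with overlap (exact permutation p = 0.9).

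Pvalb (Entrez 19293) encodes parvalbumin, a calcium-binding protein that marks the early distal convoluted tubule in mouse. It was listed at 0.25, 1.13 and 0 FPKM in Epi-cKO replicates 1, 2 and 3 and at 0.19, 0 and 0 FPKM in flox/flox replicates 1, 2 and 3. At the implied depth these values stand for about 4.04, 17.6 and 0 fragments in the Epi-cKO libraries and 2.95, 0 and 0 in the flox/flox libraries. It did not reach 1 FPKM in 3 libraries and entered only the fit without a filter (log2 difference 0.39, limma adjusted p = 0.447). No fold is given because 3 libraries are at 0. The other marker of that segment, the sodium chloride cotransporter Slc12a3, was present in every library, at 145, 197.95 and 31.84 FPKM in Epi-cKO and 67.57, 62.98 and 25.01 FPKM in flox/flox replicates 1, 2 and 3 (log2 difference 1.02, limma adjusted p = 0.387). The groups overlapped for Slc12a3, with replicate 3 lowest in both.

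**Figure D2:**
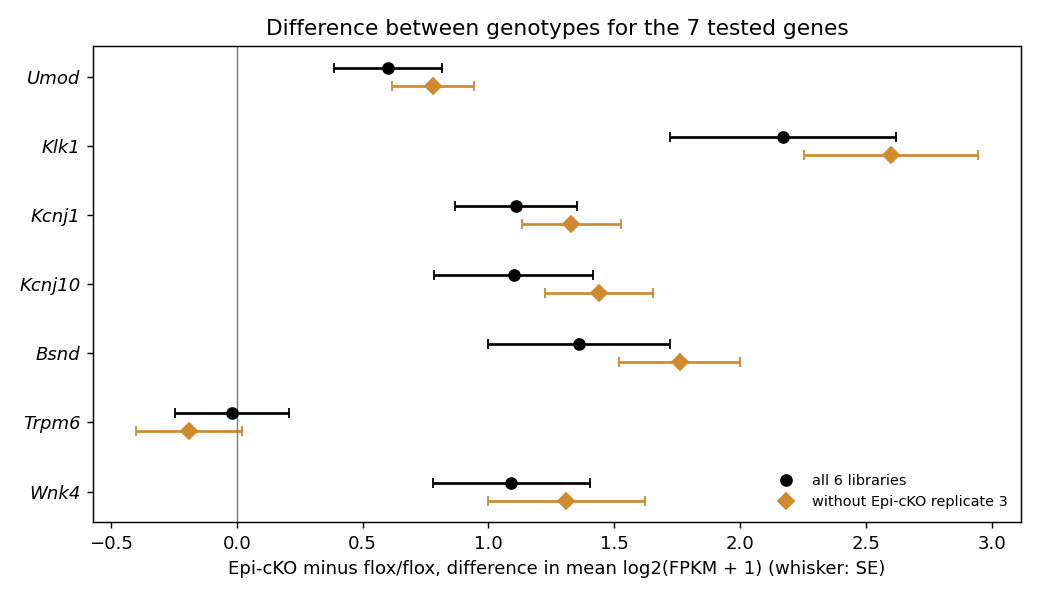
Difference in mean log2(FPKM + 1), Epi-cKO minus flox/flox, for each of the 7 tested genes, with SE, from all 6 libraries (circles) and without Epi-cKO replicate 3 (diamonds). Klk1 lies farthest to the right at 2.17 and Trpm6 lies near 0 at -0.02, and each of the other 5 moves to the right without that library.

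The 6 genes with separated groups had several features of library order in common. Epi-cKO replicate 3 was the lowest Epi-cKO library for 6 of 6, Epi-cKO replicate 2 the highest for 5 of 6 (Umod being the exception) and flox/flox replicate 2 the lowest flox/flox library for 5 of 6 (Kcnj10 being the exception). The highest flox/flox library varied, being replicate 3 for Umod, Klk1 and Kcnj1, replicate 1 for Bsnd and Wnk4 and replicate 2 for Kcnj10. Against the flox/flox mean, Klk1 was higher by 2.23, 2.98 and 1.29 on the log2 scale in Epi-cKO replicates 1, 2 and 3, Bsnd by 1.49, 2.02 and 0.57, and Umod by 0.86, 0.70 and 0.25. Among 10267 other genes with a mean of at least 5 FPKM, those whose log2 values were most like the mean standardised profile of the 7 tested genes included S100a1 and Pgrmc1, with Pearson r of 0.998 and 0.996 over the 6 libraries. These libraries and their split by genotype are common to all genes, so the values describe likeness only. S100a1, a calcium-binding protein, read 285.55, 333.36 and 246.92 FPKM in Epi-cKO and 211.71, 177.46 and 179.39 FPKM in flox/flox replicates 1, 2 and 3.

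The distal nephron genes were also set against other tubule genes of the same library. The Ksp-Cre promoter gene Cdh16 read 291.71, 391.45 and 280.81 FPKM in Epi-cKO and 211.18, 201.33 and 234.95 FPKM in flox/flox replicates 1, 2 and 3 (limma adjusted p = 0.118). Per Cdh16 in the same library, the ratio was computed for the 7 tested genes and for Slc12a1, Slc12a3 and Calb1. Of these, Klk1 and Kcnj1 alone had separated groups. Klk1 was 214 ± 83.1% of Cdh16 in Epi-cKO and 68.0 ± 18.8% in flox/flox kidneys, and Kcnj1 was 20.8 ± 3.27% and 13.9 ± 1.60% in Epi-cKO and flox/flox kidneys (SD, n = 3 each, exact two-sided permutation p = 0.1 for each). Umod was 250 ± 59.7% in Epi-cKO and 239 ± 20.3% in flox/flox kidneys, with overlap, and the groups overlapped for Kcnj10, Bsnd, Wnk4 and Trpm6 as well. They also overlapped for Slc12a1, Slc12a3 and Calb1 (exact permutation p = 0.3, 0.5 and 0.2). Against Calb1, a gene of its own segment, Klk1 stood the other way round and overlapped, at 2300 ± 1300% in Epi-cKO and 3230 ± 2710% in flox/flox kidneys (SD, n = 3 each, exact permutation p = 0.9). Umod was 578 ± 163% of Slc12a1 in Epi-cKO and 815 ± 249% in flox/flox kidneys, also with overlap (SD, n = 3 each, exact permutation p = 0.4). Of 23 ratios computed in all, 5 had separated groups, and the smallest exact permutation p was 0.354 after Benjamini-Hochberg adjustment over the 23.

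Marker lists of other cell types are given beside these values, where 4629 of all 13390 tested genes were above 0 and 8761 below 0. All 10 tested proximal tubule markers were above 0 in log2 difference, with summed levels of 2090 to 6620 FPKM in Epi-cKO and 1420 to 2180 FPKM in flox/flox libraries. All 8 principal cell markers were above 0 (sums of 249 to 832 FPKM in Epi-cKO and 124 to 230 FPKM in flox/flox libraries), as were all 8 intercalated cell markers (171 to 348 FPKM in Epi-cKO and 94.9 to 161 FPKM in flox/flox libraries). All 10 fibroblast and myofibroblast markers were below 0, with sums of 98.6 to 333 FPKM in Epi-cKO and 479 to 625 FPKM in flox/flox libraries, and so were all 10 macrophage markers, with 701 to 1340 FPKM and 1770 to 2600 FPKM in Epi-cKO and flox/flox libraries. In each of these 2 lists 1 gene passed as lower, where 0.0672% of all genes passed, and 0 passed in the other marker lists. Without Epi-cKO replicate 3, 9 fibroblast and 10 macrophage markers passed as lower (15.4% of all genes), and 9 proximal tubule, 3 principal cell and 4 intercalated cell markers as higher (9.02% of all genes). Besides these, 2 podocyte and 5 tubule injury markers passed as lower without it. All 8 endothelial markers (61.1 to 85.8 FPKM in Epi-cKO and 75.9 to 138 FPKM in flox/flox libraries) and all 7 podocyte markers (73.1 to 95.5 FPKM in Epi-cKO and 101 to 151 FPKM in flox/flox libraries) were below 0. Of 5 tested T and B cell markers 3 were below 0, with sums of 25.2 to 33.3 FPKM in Epi-cKO and 19.2 to 136 FPKM in flox/flox libraries. No marker of these lists was at 0 in all 6 libraries. All 8 principal cell markers and 1 intercalated cell marker also stand in the pathway lists described further on. The part of these cell types in the distal nephron values was not tested. Skeletal muscle genes summed to no more than 2.32 FPKM in any library.

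**Figure D3:**
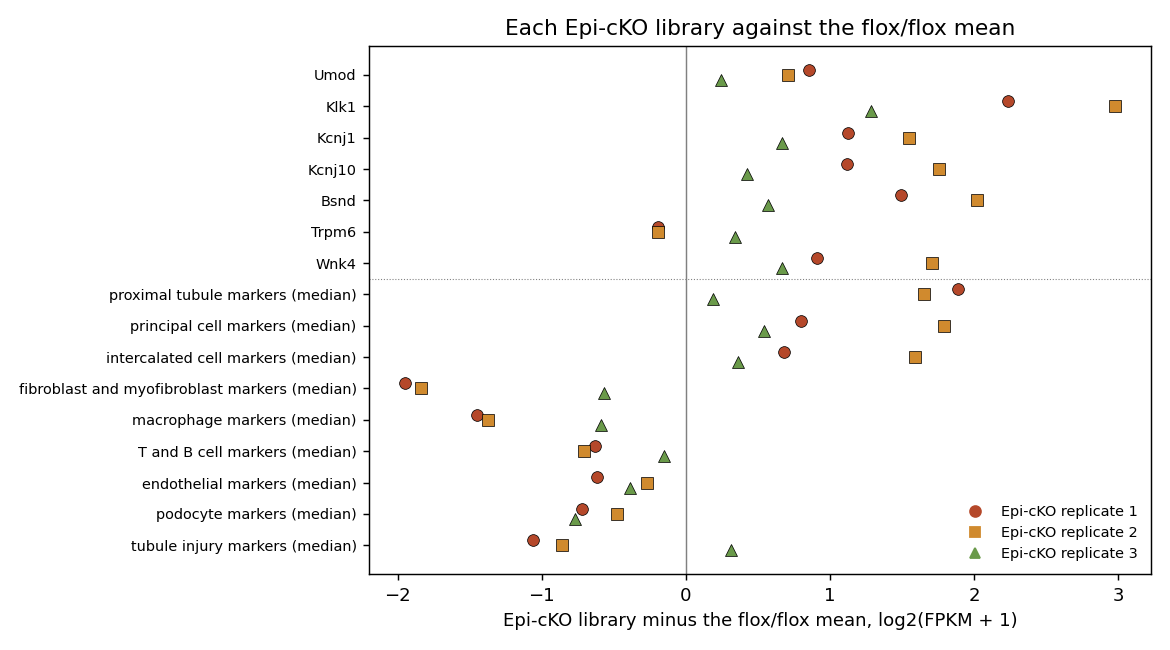
Each Epi-cKO library minus the flox/flox mean on the log2(FPKM + 1) scale, for the 7 tested distal nephron genes (upper rows) and for the medians of cell type marker lists (lower rows). Epi-cKO replicate 3 is the closest to 0 of the 3 libraries for all 6 genes with separated groups and for the proximal tubule, principal cell, intercalated cell, fibroblast and macrophage lists.

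Around these genes, 9 pathway and segment lists held 145 distinct genes. Some stand in more than 1 list, such as Kcnj16 and Fxyd2, so the list counts are not independent. Of the 145 genes, 112 were tested beside the 8. By limma 0 passed over all genes, 39 were higher and 3 lower at an unadjusted p under 0.05 (8.38% and 16.3% of all genes), and the median log2 difference was 0.27. Without Epi-cKO replicate 3, 33 passed as higher and 3 as lower (9.02% and 15.4% of all genes). With median-ratio scaling, which moves the median of all genes to 0.0, 51 were higher and 1 lower at the unadjusted threshold. For all genes that scaling gave 1696 higher and 1605 lower, against 1122 higher and 2181 lower without it.

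In the thick ascending limb list all 16 tested genes were above 0, against 4629 of all 13390 tested genes, and the median was 0.63. At an unadjusted limma p under 0.05, 10 were higher (8.38% of all genes). Slc12a1, the sodium potassium chloride cotransporter of that segment, read 142.05, 213.54 and 88.2 FPKM in Epi-cKO and 81.98, 39.37 and 84.08 FPKM in flox/flox replicates 1, 2 and 3 (limma adjusted p = 0.162), and the tight junction gene Cldn10 96.3 ± 12.9 FPKM in Epi-cKO and 62.7 ± 13.3 FPKM in flox/flox kidneys (limma adjusted p = 0.115). Kcnj1 was 47.5 ± 6.33% of Slc12a1 in Epi-cKO and 47.1 ± 12.7% in flox/flox kidneys. For the distal convoluted tubule together with the connecting tubule, 12 of 16 tested genes were above 0, with a median of 0.59. At the unadjusted threshold 6 were higher (8.38% of all genes). The calcium-binding genes S100g and Calb1 read 418 ± 312 and 47.5 ± 47.7 FPKM in Epi-cKO and 65.0 ± 33.1 and 7.14 ± 4.80 FPKM in flox/flox kidneys (limma adjusted p = 0.0811 and 0.171). Fxyd2, a subunit of the sodium pump, read 2272.65, 2078.62 and 976.59 FPKM in Epi-cKO and 688, 838.77 and 775.4 FPKM in flox/flox replicates 1, 2 and 3 (limma adjusted p = 0.118).

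Magnesium handling genes showed a median of 0.08. At the unadjusted threshold 3 of 18 were higher (Fxyd2, Pcbd1 and Cldn19), against 8.38% of all genes. Pcbd1, an enzyme of tetrahydrobiopterin recycling, read 160 ± 61.5 FPKM in Epi-cKO and 88.6 ± 4.81 FPKM in flox/flox kidneys (limma adjusted p = 0.165), and the tight junction gene Cldn19 25.1 ± 2.31 FPKM in Epi-cKO and 18.1 ± 5.45 FPKM in flox/flox kidneys (limma adjusted p = 0.202). Egf, a growth factor secreted by distal tubule cells that promotes magnesium uptake, split the Epi-cKO libraries. It read 95.95 and 125.78 FPKM in Epi-cKO replicates 1 and 2 and 4.98 FPKM in Epi-cKO replicate 3, against 7.46, 11.21 and 7.6 FPKM in flox/flox replicates 1, 2 and 3. With all libraries its log2 difference was 2.12 (SE 1.08, limma adjusted p = 0.263), and without Epi-cKO replicate 3 its limma adjusted p was 0.00278.

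The WNK kinase list had a median of 0.18. At the unadjusted threshold 4 of 19 were higher and 2 lower, against 8.38% and 16.3% of all genes. The downstream kinases Stk39 (SPAK) and Oxsr1 (OSR1) read 19.4 ± 4.29 and 17.2 ± 2.99 FPKM in Epi-cKO and 15.8 ± 2.04 and 17.9 ± 1.34 FPKM in flox/flox kidneys (limma adjusted p = 0.395 and 0.789). Klhl3, the ubiquitin ligase adaptor that targets Wnk4, read 5.55, 8.82 and 3.02 FPKM in Epi-cKO and 3.76, 2.72 and 2.2 FPKM in flox/flox replicates 1, 2 and 3 (limma adjusted p = 0.226). Cab39l, a scaffold of SPAK and OSR1, read 17.5 ± 2.55 FPKM in Epi-cKO and 11.9 ± 0.962 FPKM in flox/flox kidneys (limma adjusted p = 0.102). The phosphatase inhibitor Ppp1r1a stood at 71.99, 107.89 and 18.76 FPKM in Epi-cKO and 17.72, 15.29 and 15.47 FPKM in flox/flox replicates 1, 2 and 3 (limma adjusted p = 0.148), while the potassium chloride cotransporter Slc12a4 read 10.7 ± 2.86 FPKM in Epi-cKO and 15.6 ± 1.57 FPKM in flox/flox kidneys (limma adjusted p = 0.170).

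Of the kallikrein and kinin list 8 of 23 genes found were tested, with a median of 0.32. At the unadjusted threshold 3 of them were higher (Klk1b5, Kng2 and Xpnpep2), against 8.38% of all genes. Klk1b5 was below 1 FPKM in every flox/flox library and entered the test through the Epi-cKO libraries alone. Xpnpep2 read 0.74, 0.73 and 1.2 FPKM in flox/flox replicates 1, 2 and 3 and would not have entered without the Epi-cKO libraries. The count of higher genes in this list is therefore partly set by the filter. The kininogen gene Kng2, the substrate side of the pathway, read 169 ± 35.1 FPKM in Epi-cKO and 96.9 ± 10.2 FPKM in flox/flox kidneys (limma adjusted p = 0.0852). Its relative Kng1 read 3.19 ± 0.645 FPKM in Epi-cKO and 3.84 ± 1.18 FPKM in flox/flox kidneys (limma adjusted p = 0.606). The aminopeptidase Xpnpep2, which breaks down kinins, read 2.77 ± 1.25 FPKM in Epi-cKO and 0.890 ± 0.269 FPKM in flox/flox kidneys (limma adjusted p = 0.116). The kinin receptor Bdkrb2 was at 1.31 ± 0.244 FPKM in Epi-cKO and 1.91 ± 0.598 FPKM in flox/flox kidneys (limma adjusted p = 0.335).

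Among the 15 genes of uromodulin processing and trafficking the median was -0.08. At the unadjusted threshold 2 were higher and 1 lower, against 8.38% and 16.3% of all genes. Hpn, the protease hepsin that releases uromodulin from the cell surface, read 233.68, 157.31 and 124.57 FPKM in Epi-cKO and 83.13, 89.91 and 91.97 FPKM in flox/flox replicates 1, 2 and 3 (limma adjusted p = 0.0915). Another membrane protease, Prss8 (prostasin), read 158 ± 44.6 FPKM in Epi-cKO and 78.2 ± 4.43 FPKM in flox/flox kidneys (limma adjusted p = 0.0748). The folding enzyme Pdia3 of the endoplasmic reticulum read 218 ± 25.0 FPKM in Epi-cKO and 296 ± 50.7 FPKM in flox/flox kidneys (limma adjusted p = 0.192), and Pign, an enzyme of membrane anchor synthesis, 4.25, 4.4 and 6.36 FPKM in Epi-cKO and 6.35, 6.83 and 6.93 FPKM in flox/flox replicates 1, 2 and 3 (limma adjusted p = 0.215).

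The list of distal nephron transcription factors had a median of 0.34. Of its 23 genes 8 were higher at the unadjusted threshold and 0 lower (8.38% and 16.3% of all genes). The estrogen-related receptors Esrrb and Esrrg read 4.56 ± 1.65 and 13.3 ± 1.01 FPKM in Epi-cKO and 1.57 ± 0.312 and 10.3 ± 0.971 FPKM in flox/flox kidneys (limma adjusted p = 0.0839 and 0.160). Hsd11b2, the steroid enzyme of aldosterone-sensitive cells that was placed in this list, read 130 ± 74.2 FPKM in Epi-cKO and 51.9 ± 20.8 FPKM in flox/flox kidneys (limma adjusted p = 0.143).

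The collecting duct channels that lie downstream had a median of 0.98. At the unadjusted threshold 8 of 13 were higher (8.38% of all genes). The water channels Aqp4 and Aqp3 read 6.08 ± 2.38 and 46.4 ± 33.8 FPKM in Epi-cKO and 1.57 ± 0.175 and 9.33 ± 3.36 FPKM in flox/flox kidneys (limma adjusted p = 0.0547 and 0.0852). The epithelial sodium channel subunit Scnn1a read 36.3 ± 13.2 FPKM in Epi-cKO and 15.6 ± 1.51 FPKM in flox/flox kidneys (limma adjusted p = 0.0719), and the potassium channel Kcnq1 16.1 ± 4.84 FPKM in Epi-cKO and 9.19 ± 1.54 FPKM in flox/flox kidneys (limma adjusted p = 0.121).

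**Figure D4:**
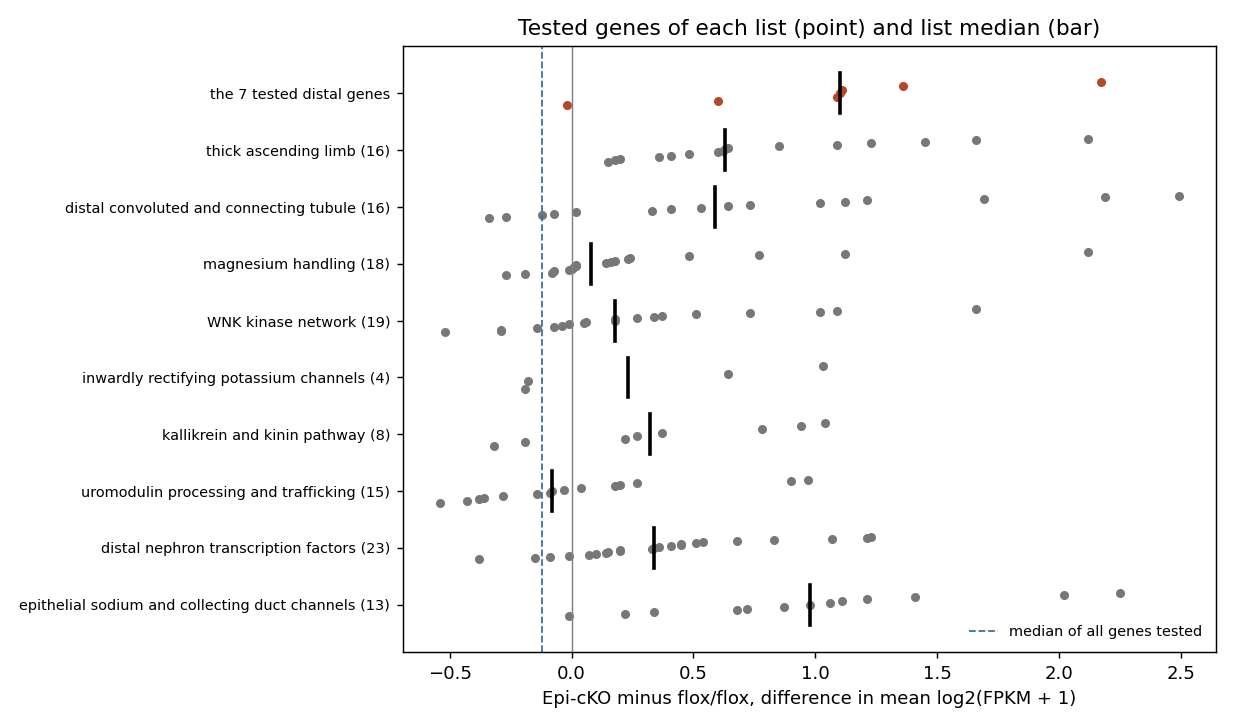
Log2 difference, Epi-cKO minus flox/flox, of the 7 tested distal nephron genes (top row) and of the tested genes of the 9 pathway and segment lists, with each list's median as a bar and the median of all genes tested (-0.12) as a dashed line. The medians run from -0.08 for uromodulin processing to 1.10 for the 7 genes.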

How the data were processed

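Messenger RNA of whole obstructed kidney was measured in 3 Epi-cKO and 3 flox/flox libraries, grouped by their titles. The authors deposited 1 table of FPKM per gene and library, with 2 decimals; the file headers name the unit. Build mm9 is named in the submitters' processing notes. The sources used here do not give the aligner, counting tool, annotation or use of strand, so overlapping and near-identical genes cannot be separated. No 2 libraries held identical values. Of 26 symbols turned into dates, all were restored through RefSeq identifiers (GRCm38.p6, used for names and promoter sequences only).

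Values were converted to log2(FPKM + 1) and compared in R 4.3.3 with the limma package, version 3.58.1 (two-sided, mean-variance trend on, group as the only term), and Benjamini-Hochberg adjustment. Means are ± SD. The code was run on simulated data with a common spread and changes larger than those of the distal nephron genes. That run says nothing about power in these libraries. Exact permutation tests used scipy 1.17.1 and have a smallest p of 0.1. Depth was estimated from the spacing of low values in transcripts of known length and is approximate. The 8 genes and the lists were chosen with earlier results of these data known. By rule, the text names all 8, Abl1, Cdh16, set partners and up to 4 genes per list with the smallest p, and 3 genes of the most similar pattern. The estimates under other filters, scalings and left-out libraries stand in the closing section. A few items that the rule names are not reported here.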

Additional observations from a re-analysis of the deposited data

How the results depend on the processing

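The counts of genes that passed were fragile. Over all genes 9 passed, 1 with a pseudocount of 0.1, without a filter, with a minimum mean of 5 FPKM, median-ratio scaling, quantile scaling or no trend, 2 with the replicate block, 4873 with array weights, and between 0 (without flox/flox replicate 2 or 3) and 3271 when single libraries were left out. The distal nephron genes gave 0 passing, 6 with array weights and 0 to 6 when single libraries were left out. The pathway lists gave 0, 61 with array weights and 0 to 36 with single libraries left out. In each of the 3 ranges with single libraries left out, the high end is the fit without Epi-cKO replicate 3. Array weights gave that library the lowest weight, 0.274, and Epi-cKO replicate 2 the highest, 2.87. Epi-cKO replicate 1 had 0.485, and flox/flox replicates 1, 2 and 3 had 0.468, 2.83 and 1.98. The Epi-cKO side of that fit therefore rests mostly on Epi-cKO replicate 2. With array weights the log2 differences that passed were Umod 0.75, Klk1 2.92, Kcnj1 1.49, Kcnj10 1.54, Bsnd 1.97 and Wnk4 1.70. With single libraries left out they ranged from 0.48 to 0.78 for Umod, 1.76 to 2.60 for Klk1, 0.89 to 1.33 for Kcnj1, 0.77 to 1.44 for Kcnj10, 1.03 to 1.76 for Bsnd and 0.79 to 1.33 for Wnk4, always above 0. Trpm6 turned to 0.10 with median-ratio scaling and 0.20 with quantile scaling, and ranged from -0.20 to 0.11 with single libraries left out; the cause was not tested.

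Equal replicate numbers showed no sign of pairing the libraries, although so few libraries cannot exclude pairing. Deviations from the group means correlated at -0.126, -0.07 and 0.034 for numbers 1, 2 and 3, and not every library correlated best with its own number. With the replicate block 5 of the 7 genes were higher at an unadjusted limma p under 0.05, against 6 without it, and 0 passed in both. At this depth Pvalb, at most 17.6 fragments per library, was too low for a useful comparison.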

Other observations

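Markers of tubule injury, a list also counted with the marker lists above, were below 0 for 9 of 10 genes. At an unadjusted limma p under 0.05, 0 were higher and 0 lower. Of all 13390 tested genes, 8761 were below 0. Without Epi-cKO replicate 3, 5 of the 10 passed as lower by limma (15.4% of all genes), with a median log2 difference of -0.96 against -0.50 with all libraries. Their median stood at -1.06, -0.86 and 0.31 on the log2 scale against the flox/flox mean in Epi-cKO replicates 1, 2 and 3. The summed level was 10900 to 18500 FPKM in Epi-cKO libraries and 11800 to 19200 FPKM in flox/flox libraries. Most of each sum was the single gene Spp1, so it says little about the other markers. Spp1 read 11440.07, 10072.27 and 16315.12 FPKM in Epi-cKO and 17744.32, 16827.79 and 10273.61 FPKM in flox/flox replicates 1, 2 and 3.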
